A study of Mus musculus with 4 samples.

Results

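The genes described here are 7 genes of the red cell lineage, Alas2, Hba-a1, Hba-x, Hbb-bh1, Slc4a1, Klf1 and Gata1, and Epor, the receptor for erythropoietin. They were taken as every probe that the array's design names for one of these 8 genes, which gave 9 probes: 2 for Hbb-bh1 and 1 for each of the others. The whole array holds 27630 genes or unnamed transcripts on 41174 probes. The 8 genes were chosen with their differences between genotypes in view, so those differences are given as a description, without a test.

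RNA came from 2 tissues of E13.5 mouse embryos (embryonic day), limb and brain, on a background of 129 and C57BL/6. In each tissue a wild type (WT) sample was set beside a sample with conditional ablation of Rest (CKO), made with a floxed Rest allele and Cre alleles that doxycycline switches on. Doxycycline was given from E8.5 to E13.5, and the labels record it for the WT samples as well as for CKO. Which cells the Cre alleles act in, and whether a sample holds 1 embryo or several, is not stated. Each of the 4 groups had 1 array, with no replicates, so no difference between groups has a replicate error.

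Red cells of the mouse embryo come in successive waves. Primitive red cells arise in the yolk sac and carry embryonic globin chains, and definitive red cells, made in the fetal liver at this stage, carry the adult chains. Both kinds circulate at midgestation and reach every vascularised tissue, so an RNA sample of limb or brain holds blood as well as the tissue itself. Erythropoietin acts on red cell progenitors through Epor, and the transcription factors GATA1 and KLF1 switch on globin, haem synthesis and red cell membrane genes. Rest encodes a zinc-finger repressor best known for keeping neuronal genes silent outside neurons.

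The globin probes are shown because the embryonic and adult chains had different values and because 1 probe of Hba-a1 may also capture its near-identical copy, Hba-a2. Each is a 60-base DNA probe written 5′ to 3′, at its mm9 position in the scanner files. The Hba-a1 probe, placed at chr11:32183775-32183956 on the plus strand, covers 182 bases of genome for 60 bases of probe. Hba-x is probed at chr11:32177668-32177727, plus strand, and Hbb-bh1 at chr7:110990307-110990366 and chr7:110990327-110990386, minus strand. Capitals mark the 40 bases that both Hbb-bh1 probes share.
Hba-a1: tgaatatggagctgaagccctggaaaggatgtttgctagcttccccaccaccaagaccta
Hba-x: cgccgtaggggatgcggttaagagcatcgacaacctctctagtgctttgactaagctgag
Hbb-bh1, brighter probe: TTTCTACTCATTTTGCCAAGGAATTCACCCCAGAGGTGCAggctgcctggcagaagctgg
Hbb-bh1, dimmer probe: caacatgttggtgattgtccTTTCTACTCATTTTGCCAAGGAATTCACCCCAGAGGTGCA

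The other probes are named by position only. On mm9 they lie at chrX:147004993-147005052 for Alas2, chr11:102210256-102210315 for Slc4a1, chr8:87428881-87428940 for Klf1, chrX:7536849-7536908 for Gata1 and chr9:21763422-21763481 for Epor. The files pair each with a RefSeq mRNA of its gene. Exon and UTR boundaries on mm9 were not used here.

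RefSeq promoters, taken as the 250 bases before the annotated start on GRCm38.p6, were found for 6 of the 8 genes. They were searched on both strands for the GATA motif, spelled AGATAA with the variants AGATAG and further TGATAA and likewise TGATAG, and for a CACCC-type motif, CCNCNCCCN, of the kind that KLF1 binds. Of these, 4 are printed, for the haem enzyme, an adult and an embryonic globin, and the receptor, 5′ to 3′ along the gene, with both motifs in capitals and overlapping matches run together. The windows are chrX:150547167-150547416 (plus strand) for Alas2, chr11:32283422-32283671 (plus) for Hba-a1, chr11:32276350-32276599 (plus) for Hba-x and chr9:21963577-21963826 (minus) for Epor.
Alas2: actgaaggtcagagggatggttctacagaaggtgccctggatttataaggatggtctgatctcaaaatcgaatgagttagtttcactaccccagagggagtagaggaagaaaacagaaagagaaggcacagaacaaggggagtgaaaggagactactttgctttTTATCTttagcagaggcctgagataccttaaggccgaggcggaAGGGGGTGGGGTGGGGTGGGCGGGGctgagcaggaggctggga
Hba-a1: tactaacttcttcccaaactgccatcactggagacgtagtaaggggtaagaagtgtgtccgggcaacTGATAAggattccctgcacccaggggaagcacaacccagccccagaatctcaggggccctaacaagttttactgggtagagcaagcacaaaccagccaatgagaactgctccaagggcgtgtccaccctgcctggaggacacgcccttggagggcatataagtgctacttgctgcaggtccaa
Hba-x: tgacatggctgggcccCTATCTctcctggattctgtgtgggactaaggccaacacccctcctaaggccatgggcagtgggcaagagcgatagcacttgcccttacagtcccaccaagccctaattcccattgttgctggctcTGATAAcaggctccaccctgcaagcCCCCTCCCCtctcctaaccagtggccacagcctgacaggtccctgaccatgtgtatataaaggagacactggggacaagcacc
Epor: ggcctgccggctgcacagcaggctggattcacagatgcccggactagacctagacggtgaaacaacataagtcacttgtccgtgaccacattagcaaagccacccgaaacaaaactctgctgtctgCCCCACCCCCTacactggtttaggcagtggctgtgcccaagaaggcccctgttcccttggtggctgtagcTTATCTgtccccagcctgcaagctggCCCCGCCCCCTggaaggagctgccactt

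A GATA match was present in 5 of the 6 windows, those of Alas2, Hba-a1, Hba-x, Klf1 and Epor, and a CACCC-type match in 4, those of Alas2, Hba-x, Gata1 and Epor. Of 32851 promoter windows of this length, 26.5% held a GATA match, 45.8% a CACCC-type match and 8.17% both. Alas2, Hba-x and Epor held both. The GATA match began 86 bases before the start in Alas2, 183 bases in Hba-a1 and 54 bases in Epor, and Hba-x had 2, at 234 and 108 bases. Any link between these motifs and the differences between genotypes was not tested. A match describes letters in a window and does not show that a factor binds there.

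All 4 arrays lay on 1 slide. Spots well above background, the scanner software's own call, made up 62.7% to 70.7% of the 43379 non-control spots, and each CKO array had more of them than the WT array of its tissue (68.6% against 62.7% in limb, 70.7% against 64.5% in brain). Levels below are log2 signals on a scale where 0 is the array's 75th percentile. All 3 Rest probes gave lower signal in CKO, by 4.03-fold to 17.2-fold in limb and 1.88-fold to 11.9-fold in brain, where 1 probe gave a bound, at least 6.60-fold. The tissue labels were checked on the WT arrays: 10 of 10 pan-neuronal markers were at least 2-fold higher in brain, and 10 of 10 skeletal muscle and 8 of 9 limb patterning genes at least 2-fold lower. The only error these arrays give is technical. It is stated as the SD of a difference between single spots, from the 25 probes nearest in level among 245 printed 10 times on each array, and it covers neither labelling nor differences between embryos.

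Of the 8 genes, 3 were at least 2-fold lower in CKO limb than in WT limb, 1 was at least 2-fold higher and 4 differed by less. Of the 18447 genes compared there, 2.16% lay at least 2-fold lower, 2.49% at least 2-fold higher and 4.65% either. In brain, 1 of the 8 was at least 2-fold higher and 0 were lower, where 1.37% and 1.22% of 18944 genes passed those folds, 2.59% in all. These shares give the background, and since the genes were chosen on the same values nothing is read from the counts.

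**Figure D1:**
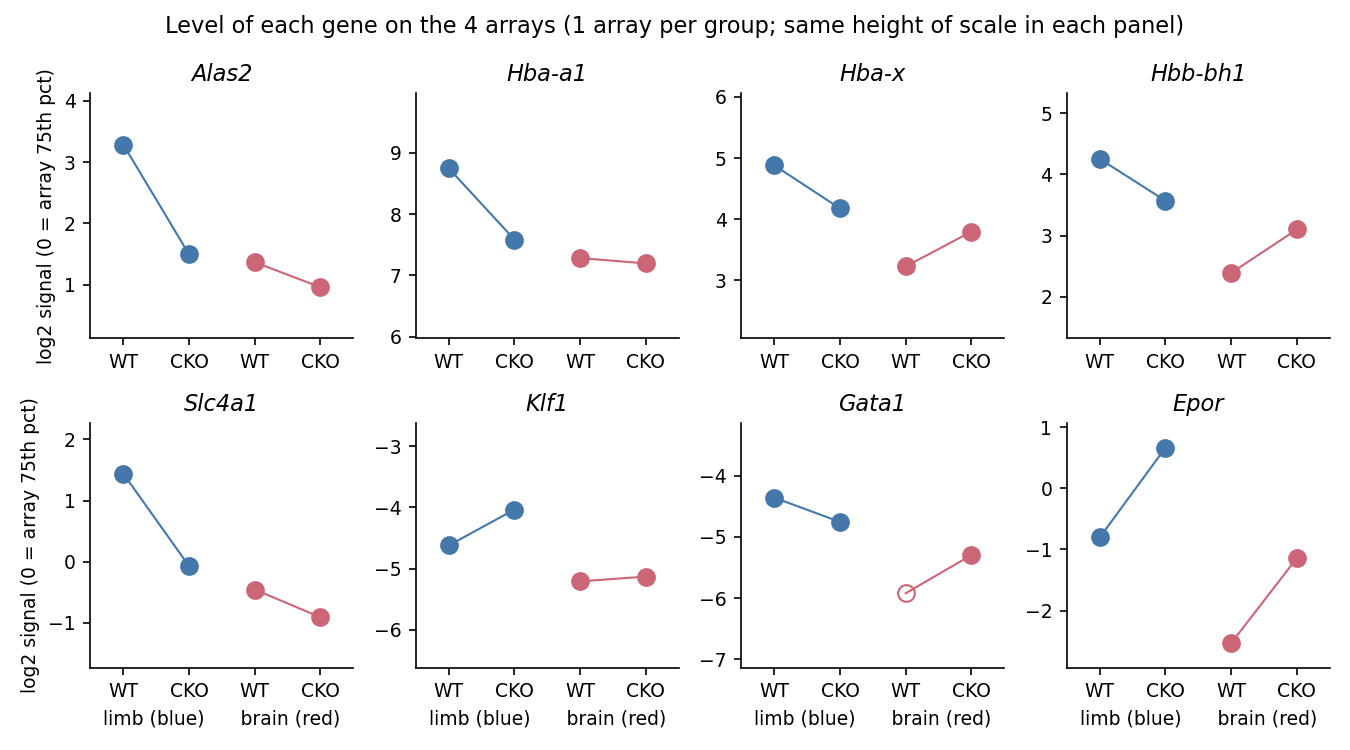
Log2 signal of each of the 8 genes on the 4 arrays (y axis; 0 is the array's 75th percentile), with WT and CKO of limb in blue and of brain in red, 1 array per group, so there are no error bars; every panel spans the same number of log2 units. The open point marks Gata1 in WT brain, not well above background. Alas2, Hba-a1, Slc4a1, Hba-x, Hbb-bh1 and Gata1 were highest in WT limb, and Klf1 and Epor in CKO limb.

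Alas2 encodes the erythroid form of the first enzyme of haem synthesis. Its level was 3.29 for WT and 1.49 for CKO in limb, and 1.36 for WT and 0.96 for CKO in brain. WT limb stood well above the other 3 arrays, and CKO limb was close to WT brain. The CKO level was 3.47-fold lower than WT in limb (a log2 difference of -1.79, with a technical SD of 0.069) and 1.33-fold lower in brain (-0.41, technical SD 0.061). In limb, 0.678% of all genes compared differed by as much or more in that direction, and in brain 3.21%.

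The other haem synthesis genes differed less than Alas2 in both tissues. Of these 8 genes, 0 were at least 2-fold lower in CKO limb, where 2.16% of all genes were, so nothing is read from that count. Their median difference was -0.05, beside -0.02 over all genes. Fech, the ferrochelatase that inserts iron into the ring, differed by -0.49 in limb and -0.18 in brain, and at its other probe by -0.70 and -0.12. Cpox differed by -0.18 and Urod by -0.12 in limb. Alas1, the form of the first enzyme used outside red cells, differed by 0.01.

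Hba-a1 encodes the adult alpha globin chain. Its level was 8.75 for WT and 7.58 for CKO in limb, and 7.28 for WT and 7.20 for CKO in brain, and its spot was saturated on none of the 4 arrays. It was thus highest in WT limb, with the other 3 arrays close together. CKO was 2.24-fold lower in limb (-1.16, technical SD 0.062), and in brain the difference was -0.09 (technical SD 0.061). The probe named for Hba-a2 differed by -1.19 in limb and -0.05 in brain, and the pair cannot be told apart with certainty by these probes.

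Hba-x encodes the embryonic alpha-like chain, zeta globin. Its level was 4.88 for WT and 4.18 for CKO in limb, and 3.23 for WT and 3.80 for CKO in brain. In limb CKO was 1.63-fold lower (-0.70, technical SD 0.065), and in brain it was 1.48-fold higher (0.57, technical SD 0.061). CKO therefore lay below WT in limb and above WT in brain.

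Hbb-bh1 encodes an embryonic beta-like chain and showed the same order of arrays. At the brighter probe the level was 4.25 for WT and 3.57 for CKO in limb, and 2.39 for WT and 3.1 for CKO in brain, a difference of -0.69 in limb (1.61-fold lower) and 0.71 in brain (1.64-fold higher, technical SD 0.067 and 0.061). At the dimmer probe it was 1.98, 0.85, 0.18 and 0.37 in the same order, a difference of -1.13 in limb and 0.19 in brain. Both probes had the same directions, but although they share 40 of 60 bases, their differences were 0.45 apart in limb and 0.52 apart in brain, which is well beyond the technical SD of 0.061 to 0.070 for each.

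Set beside the other globin genes on the array, the embryonic chains formed 1 group and the adult chains another. This grouping follows the known stage of each gene and was made after the values had been seen. The 3 embryonic genes Hba-x, Hbb-bh1 and Hbb-y differed between -0.70 and -0.64 in limb and between 0.57 and 0.75 in brain. The 3 adult genes were Hba-a1, Hba-a2 and Hbb-b1 (the name in the file for a pair of near-identical adult beta genes). At their brightest probes they differed between -1.19 and -1.08 in limb and between -0.36 and -0.05 in brain. With each gene at its brightest probe, the ranges did not overlap in either tissue, but the dimmer Hbb-bh1 probe, at -1.13 in limb, lay inside the adult range there. Other probes of Hbb-b1 lay below the adult ranges, at -1.25, -1.35 and -1.61 in limb and from -0.41 to -0.40 in brain. The width of each range thus rests on which probe is taken. The median of the embryonic genes was above that of the adult genes by 0.48 in limb and 0.80 in brain. Ahsp, the chaperone of free alpha chains, went with the adult genes and beyond, at -1.77 in limb and -0.66 in brain.

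Slc4a1 encodes band 3, the anion exchanger of the red cell membrane. Its level was 1.44 for WT and -0.07 for CKO in limb, and -0.45 for WT and -0.91 for CKO in brain. As for Alas2, WT limb stood apart and CKO was the lower of the pair in both tissues. CKO was 2.85-fold lower in limb (-1.51, technical SD 0.067) and 1.37-fold lower in brain (-0.45, technical SD 0.072).

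Other red cell membrane and cytoskeleton genes were mixed. Of the 17 compared in limb besides Slc4a1, 4 were at least 2-fold lower and 0 at least 2-fold higher, with a median of -0.14. Of these 17, 9 lay below 0 and 7 above, the highest at 0.77. Kel, a blood group peptidase, was 2.08-fold lower in limb, and Rhd and the spectrin gene Sptb differed by -0.96 and -0.89. Sptb was dim, and another of its probes went the other way in limb, by 0.65. Rhag was not well above background in CKO limb and was at least 2.0-fold lower. In brain 0 of 14 differed by 2-fold.

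Klf1 and Gata1 encode the transcription factors that drive this programme, and both were dim. The level of Klf1 was -4.62 for WT and -4.03 for CKO in limb, and -5.21 for WT and -5.13 for CKO in brain. CKO was thus higher in limb by 0.59 (1.5-fold), against a technical SD of 0.22, and by 0.08 in brain, against 0.29. With normexp background correction of the raw signals the limb difference was 0.10, so this value rests on how background is removed.

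Gata1 was measured by a probe printed 10 times, which gives its own technical error. Over those spots the level was -4.36 ± 0.16 (SD, n = 10 spots) for WT and -4.75 ± 0.15 for CKO in limb, and -5.92 ± 0.42 for WT and -5.30 ± 0.21 for CKO in brain. The spots of WT and CKO limb ran from -4.68 to -4.03 and from -4.99 to -4.56, and their means differed by -0.40. The ranges overlapped only through the lowest WT spot, and the next lowest, at -4.45, lay above every CKO spot. In WT brain 0 of 10 spots were well above background, against 10 of 10 on each other array. The brain difference is therefore a bound, at least 0.06 higher in CKO. Spots of 1 array share 1 RNA sample, so this spread is technical.

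**Figure D2:**
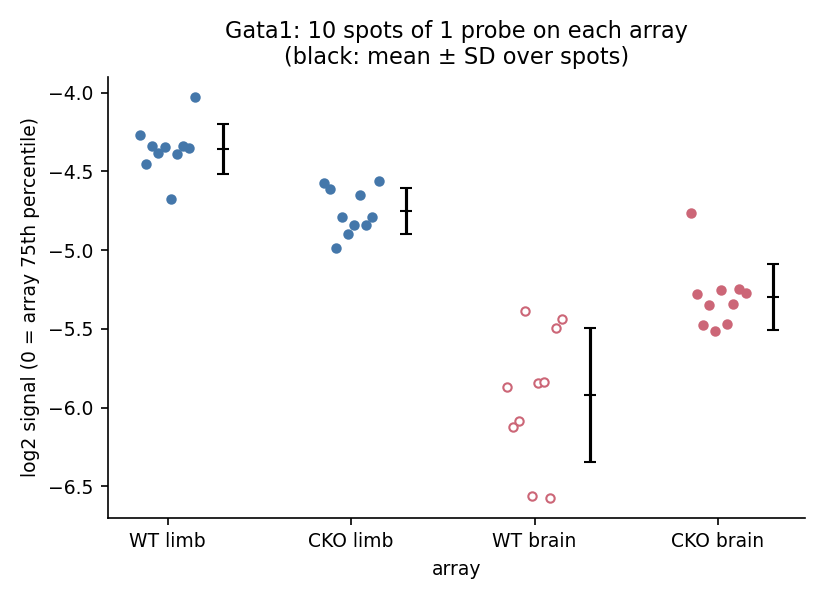
Log2 signal of the 10 spots of the Gata1 probe on each array (y axis; 0 is the array's 75th percentile), with the mean ± SD over spots in black and open circles where the spots were not well above background. The means run from -4.36 in WT limb to -5.92 in WT brain, and the WT and CKO limb spots overlap only through the lowest WT spot.

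Among the 12 other erythroid transcription factors listed, 0 were at least 2-fold different in limb, and 1, Nfe2, was at least 2-fold higher in brain. Nfe2, a factor of red cells and megakaryocytes, differed by -0.25 in limb and 1.21 in brain. Gata2, which acts in progenitors, differed by -0.73 in limb, Lyl1 by -0.30 and Tal1 by -0.21. In the other direction Gfi1b, a repressor of red cell and megakaryocyte development named after its values were seen, was not well above background in WT limb and was at least 0.64 higher in CKO limb. The regulators as a list had a median of -0.12 in limb and 0.10 in brain.

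Epor differed from the other 7 genes. Its level was -0.80 for WT and 0.66 for CKO in limb, and -2.53 for WT and -1.14 for CKO in brain. CKO was the higher of the pair in both tissues, and the CKO brain array did not reach the WT limb level. CKO was 2.76-fold higher in limb (1.47, technical SD 0.089) and 2.62-fold higher in brain (1.39, technical SD 0.089). The brain difference minus the limb difference was -0.07, less than the technical SD of either. With normexp background correction of the raw signals, Epor differed by 1.35 in limb and 1.04 in brain, further apart than that SD. How close the 2 tissues lie thus rests on how background is removed. Of 17408 genes compared in both tissues, 27 (0.155%) were at least 2-fold higher in CKO in both, and Epor was 1 of them. In the other direction 11 genes (0.0632%) were at least 2-fold lower in both, and 0 of the 8 genes were. A 2-fold higher level in both tissues was not shared by any of the other 7 genes. The median of the other 7 was -0.70 in limb and 0.06 in brain, so Epor lay 2.17 above it in limb and 1.33 above it in brain.

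The partners of Epor in the cell were compared between genotypes as well. Of the 12 other erythropoietin signalling genes compared in limb and in brain, 0 were at least 2-fold different in either tissue, with medians of -0.07 and 0.00. Over all genes, 4.65% in limb and 2.59% in brain differed by that fold, so nothing is read from this count. The receptor kinase Jak2 differed by -0.02 in limb and -0.28 in brain, and the signal transducers Stat5a by 0.16 and 0.29 and Stat5b by 0.19 and 0.11. The feedback targets Cish and Socs3 differed by 0.01 and -0.06 in limb and by -0.03 and -0.08 in brain. Kit, the stem cell factor receptor of red cell progenitors, differed by -0.53 in limb, Pim1 by -0.27 and Ptpn6 by -0.16. Epo itself was well above background on none of the 4 arrays.

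**Figure D3:**
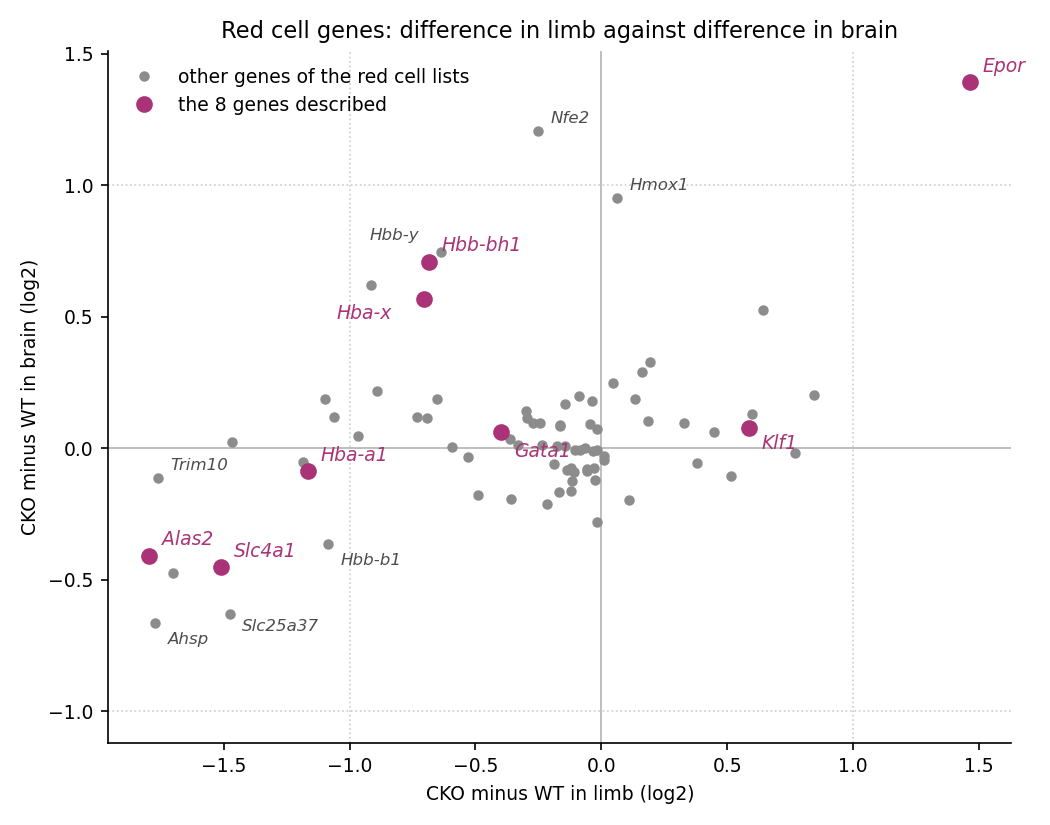
CKO minus WT difference in limb (x axis, log2) against that in brain (y axis, log2) for the red cell list genes compared in both tissues, with the 8 genes described in purple, other genes in grey and dotted lines at 2-fold; each point is 1 gene on 1 array per group. Epor lies alone at the upper right at 1.47 and 1.39, Hba-x and Hbb-bh1 are below 0 in limb and above 0 in brain, and Alas2 and Slc4a1 are below 0 in both.

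Across 7 red cell lists with 91 genes, 84 could be compared in limb: 14 were at least 2-fold lower and 1, Epor, at least 2-fold higher. Their median was -0.15, beside -0.02 over all genes. Without the 8 genes, 11 of 76 were at least 2-fold lower and 0 higher, with a median of -0.14. In brain 0 of 81 were at least 2-fold lower and 2, Epor and Nfe2, at least 2-fold higher, with a median of 0.01. These lists were chosen with earlier results of these data known.

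Iron and maturation genes held some of the larger limb differences. Of 10 iron genes compared, 2 were at least 2-fold lower in CKO limb. The mitochondrial iron importer Slc25a37 differed by -1.48 in limb and -0.63 in brain, although its other probe differed by -0.43 in limb. Abcb10, a mitochondrial transporter that partners it, was 2.76-fold lower in limb and differed by 0.02 in brain. The transferrin receptor genes went the other way in limb, Tfr2 by 0.84 and Tfrc by 0.45. Of 11 red cell enzyme and maturation genes, 2 were at least 2-fold lower in limb: Trim10 by 3.39-fold and carbonic anhydrase 2 (Car2) by 2.14-fold. Ube2l6 differed by -0.65 and Bpgm, which makes the regulator of haemoglobin's oxygen affinity, by -0.59.

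In these bulk samples, fewer red cells and less RNA per red cell cannot be told apart. Markers of the other cells that blood or vessels bring gave the following values, and their part in the results was not tested. The 12 endothelial markers differed by a median of 0.04 in limb and 0.26 in brain, with a summed level, in multiples of the 75th percentile signal, of 30.9 for WT and 32.4 for CKO in limb, and 18.3 and 21.4 in brain. Of them 0 were at least 2-fold different in either tissue. The globin list's summed level was 1492 in WT and 719 in CKO in limb, and 589 in WT and 562 in CKO in brain.

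Macrophage markers had a median of -0.20 in limb (11 of 12 compared) and 0.42 in brain, with summed levels of 17.5 for WT and 16.2 for CKO in limb, and 6.36 and 8.35 in brain. Cd163, a defining marker, was not well above background. Megakaryocyte and platelet markers had a median of -0.27 in limb and 0.25 in brain, and 1 of 11 was at least 2-fold lower in CKO limb. In brain 1 of 10 was at least 2-fold higher. Their summed levels were 8.65 for WT and 6.23 for CKO in limb, and 4.39 and 5.19 in brain.

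Granulocyte markers well above background on both arrays of a tissue were higher in CKO, in limb and in brain. In CKO limb 5 of 8 compared were at least 2-fold higher, beside 2.49% of all genes, with a median of 1.39. In brain 3 of 7 were, beside 1.37%, with a median of 0.44. Ngp, Ltf and Ctsg in limb, and S100a8, Camp and Ltf in brain, were not well above background in WT. Their values there are bounds that cannot lie below 0, and the brain median is the bound of Camp. Mpo, the granule peroxidase, was 3.04-fold higher in CKO limb and 2.61-fold in CKO brain, and S100a9 was 2.34-fold and 7.5-fold higher. The summed level was 1.49 for WT and 3.87 for CKO in limb, and 0.319 for WT and 1.04 for CKO in brain. From highest to lowest this ran CKO limb, WT limb, CKO brain and WT brain, as did the Epor levels and the summed levels of the endothelial and skeletal muscle lists. Elane, a defining granule protease, was well above background on none of the 4 arrays. The part of these cells in the Epor difference was not tested. Skeletal muscle markers had a median difference of 0.51 in limb, with 10 of 11 above 0. In brain the median was 0.69 over 8 markers, with 2 at least 2-fold higher, beside 1.37% of all genes. Myog, Tnni1, Tnnt2 and Des were not well above background in WT brain, so their brain values are bounds that cannot lie below 0. The remaining brain values were 0.68 for Acta1, 0.04 for Actc1, 1.58 for Myh3 and 2.26 for Myl1. The summed level of the muscle markers was 226 for WT and 300.2 for CKO in limb, and 2.36 and 2.79 in brain. Pan-neuronal markers were higher in CKO limb, by a median of 1.14 with 10 of 10 above 0. Of these, 5 were at least 2-fold higher, beside 2.49% of all genes, and the limb value of Elavl3 is a bound. In brain the pan-neuronal median was -0.01. Since Rest keeps neuronal genes silent outside neurons, more neurons and neuronal genes switched on in other cells cannot be told apart in CKO limb. The part of muscle or neuronal cells in the Epor difference was not tested either.

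**Figure D4:**
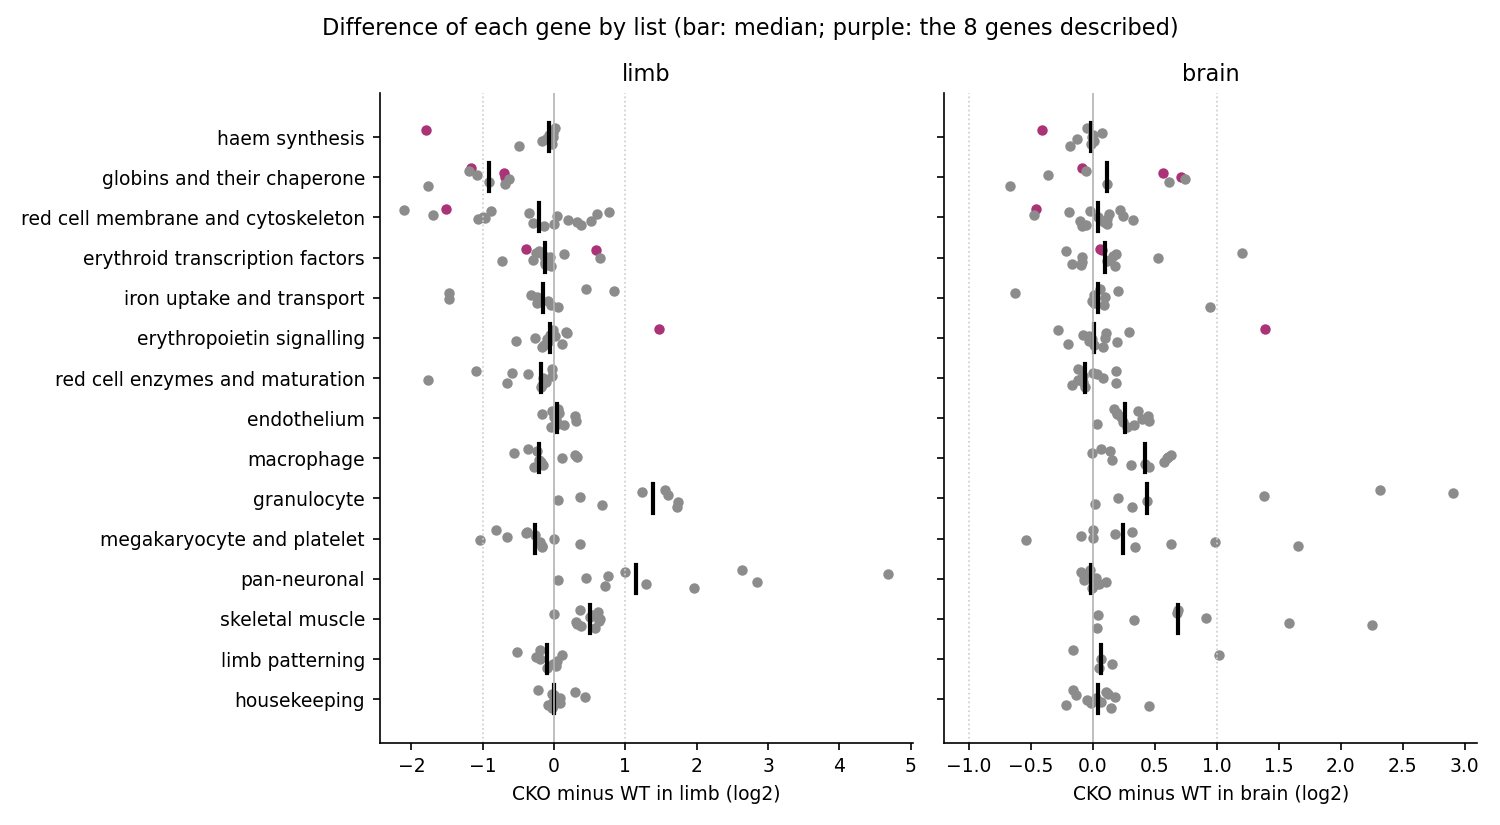
CKO minus WT difference (x axis, log2) of each gene in the red cell lists and in the lists of other cell types and control genes, in limb (left) and brain (right); each point is 1 gene, the bars are list medians, purple points are the 8 genes described and dotted lines mark 2-fold. The globin list lies furthest below 0 in limb, with a median of -0.92. The granulocyte list has medians of 1.39 in limb and 0.44 in brain, with bounds included.

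Between the WT tissues, 7 of the 8 genes were at least 2-fold lower in brain than in limb, where 18.9% of 18434 genes were. In all, 15.8% were higher by that fold and 34.7% either. Alas2, Hbb-bh1 and Slc4a1 differed by -1.92, -1.86 and -1.89, Epor by -1.73, Hba-x by -1.65 and Hba-a1 by -1.47. Gata1 was at least 1.0 lower, as a bound. Klf1 differed by -0.59. In CKO the same comparison gave smaller gaps for the red cell genes other than Klf1: -0.54 for Alas2, -0.47 for Hbb-bh1, -0.84 for Slc4a1, -0.38 for Hba-x, -0.39 for Hba-a1 and -0.54 for Gata1. For Epor the gap was -1.80 in CKO, close to its WT value, and for Klf1 it was -1.10. At least 2-fold lower in CKO brain than in CKO limb were thus Epor and Klf1 alone, where 16.9% of 19702 genes were, 15.1% were higher and 32% either.

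The genes most like these in pattern were found by the distance between profiles over the 4 arrays, each centred on its own mean, among 15628 genes well above background and unsaturated on all arrays. With 4 arrays, such a likeness is a description. Nearest to the mean of the 6 red cell genes measured on all arrays were Galnt5 (distance 0.027 log2), F13a1 (0.11), the unnamed transcript TC1646500 (0.11), Rec114 (0.16) and Nkg7 (0.18). F13a1, which encodes a coagulation factor subunit made by platelets and macrophages, was at 1.62 for WT and 0.87 for CKO in limb, and 0.08 for WT and 0.21 for CKO in brain. Nearest to Epor were Shfl (0.24), Aspg (0.33), Gstt1 (0.40), Adgrg3 (0.45) and Chrdl1 (0.54). Gstt1, a glutathione transferase, differed by 1.92 in limb and 1.56 in brain. None of these 10 genes is in a red cell list. Of the 6 red cell genes described here that were measured on all arrays, Klf1 was the nearest to Epor, at rank 785 and a distance of 1.45.

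The protein-coding neighbours of Epor in chromosome order were compared, a choice made after the values had been seen, with order alone taken from RefSeq. Of the 5 genes on each side, 0 besides Epor differed by 2-fold in brain, where their differences ran from -0.03 to 0.34. In limb, Plppr2, a phospholipid phosphatase-related gene placed 2 genes away, was 3.19-fold higher in CKO, and Elavl3, which encodes a neuronal RNA-binding protein and lies 4 genes to the other side, was at least 25.8-fold higher. Ccdc159 differed by 0.76 and the adjacent genes Swsap1 and Rgl3 by 0.40 and -0.08. None of the 10 neighbours was at least 2-fold higher in both tissues, where 0.155% of the 17408 genes compared in both were. With so small a share, and with Epor chosen on these values, nothing is read from this.

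**Figure D5:**
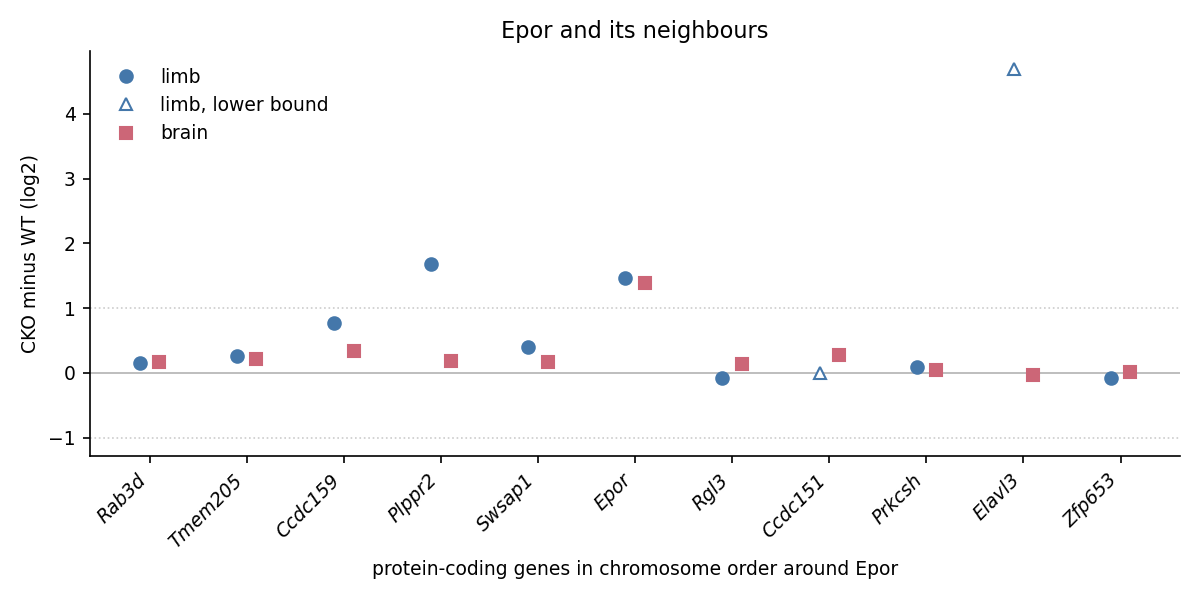
CKO minus WT difference (y axis, log2) of Epor and the 5 protein-coding genes on either side, in chromosome order (x axis, not to scale), in limb (blue; open triangles are lower bounds) and brain (red), 1 array per group; dotted lines mark 2-fold. Epor is above 2-fold in both tissues, and Plppr2 and Elavl3 in limb.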

How the data were processed

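Per the submitters' processing notes, spot intensities came from Agilent's Feature Extraction software, version 9.5.3.1. Per the file headers, the deposited intensities were background-subtracted and detrended within each array, with no normalization between arrays, and dim spots hold a substitute value. The series table holds the same values rounded, within 0.0071 log2 over 45018 spots.

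Control and outlier spots were left out, log2 signals were centred on the 75th percentile within arrays, and spots of a probe were averaged. Probes were renamed through RefSeq for 26933 by accession, 5570 by symbol and 894 by synonym, and 7777 kept the file's name. A gene was its probe with the highest mean, compared when well above background on at least 1 array of the pair, and a probe counted as such when most of its spots were. Where 1 array was dim, its lowest signal among probes well above background, or the probe's own if higher, gave a bound ("at least"). Bounds of reversed direction became 0.

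A call is a 2-fold difference. Within a tissue there is 1 array per group and no test, and since the genes were chosen on these values, a fit over both tissues was not run on them. The genes and lists were chosen with earlier results of these data known. Named genes were the 8 genes, the 4 largest limb differences of each red cell list and list genes past 2-fold. Some genes that this rule names are not reported here. Others were chosen after their values were seen. Alternatives were normexp (offset 50) on raw intensities, quantile and median scaling, detected-probe scaling, probe means, both-array detection and the series table. The comparison was tested on simulated data. Python 3.11.15, pandas 2.3.3, R 4.3.3 and limma 3.58.1 were used.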

Additional observations from a re-analysis of the deposited data

Results flagged for a closer look

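Hba-x and Hbb-bh1, which encode embryonic globin chains, had CKO below WT in limb and above WT in brain, each by more than the technical SD. For Hba-x the difference was -0.70 in limb and 0.57 in brain, 1.27 apart. For Hbb-bh1, at its brighter probe, it was -0.69 and 0.71, 1.39 apart, and at its dimmer probe -1.13 and 0.19. The gap itself was not particular to these genes. Brain minus limb was also 1.39 for Alas2, 1.08 for Hba-a1 and 1.06 for Slc4a1, where CKO lay below WT in both tissues. It was 0.46 for Gata1, -0.51 for Klf1 and -0.07 for Epor. With 1 array per group, the difference between tissues was not tested.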

How the results depend on the processing

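With 7 alternatives, the counts of the 8 genes past 2-fold stayed at 3 lower in CKO limb and at 1 in CKO brain, and the count between WT tissues at 6 or 7. The red cell lists had 11 to 14 genes at least 2-fold lower in CKO limb, against 14, with a median from -0.21 to -0.14. Their brain median ran from -0.02 to 0.03 and changed sign under 2 alternatives. Epor lay 2.17 above the median of the other 7 genes in limb, 2.02 with normexp and 2.38 with the mean of all probes. In brain it lay 1.33 above, and 1.14 with normexp. The cause of these shifts was not tested. Of 111 values of single genes, 103 moved by less than the technical SD and 8 by more, and 0 called values changed direction. Dim genes are limited by background: Klf1 in limb ran from 0.10 to 0.61. No paired analysis was possible because the groups share only replicate number 1, and a fit with tissue as the block was not run on genes chosen from these values. No array could be left out, since each group has only 1.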

Other observations

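Hmox1, the enzyme that breaks haem down, was 1.93-fold higher in CKO brain, at -0.46 in WT and 0.49 in CKO, and its limb levels were 1.02 in WT and 1.08 in CKO. Among platelet genes, the chemokine gene Pf4 was 1.76-fold lower in CKO limb and differed by 0.00 in brain. The chemokine precursor gene Ppbp differed by -0.19 in limb and 0.99 in brain. The theta globin gene Hbq1a differed by -0.92 in limb and 0.62 in brain, in the same directions as the embryonic globins. These values come from 1 array per group and have no test.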
